A study of Oreochromis niloticus and Pundamilia nyererei with 6 samples.

Results

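The intronless part of the liver transcriptome was described in 2 cichlid fishes, Oreochromis niloticus (ON, the Nile tilapia) and Pundamilia nyererei (PN). Its members are all nuclear transcripts with a + or − strand and 1 exon, taken by strand and exon number alone, in the transcript set of each species. They number 2122 of 41456 transcripts in ON and 2155 of 45966 in PN, 4277 of 87422 in all, after 37 single-exon transcripts of the ON mitochondrial sequence were left out. The transcripts of the same sets with a strand and more than 1 exon, called spliced here, served for comparison and number 30925 in ON and 25677 in PN.

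Each species was represented by the livers of 3 tank-reared males, 1 library per fish, with no treatment and no age given. The ON fish were of generation 93 or so of a stock from Manzala in Egypt, and the PN fish were generation 1 from Lake Victoria. Total RNA was depleted of ribosomal RNA and sequenced as strand-specific pairs of 75-base reads. The fish are numbered 1 to 3 within a species, and the numbers tie no ON fish to a PN fish. Each library was measured on the genome, annotation and transcript set of its own species, so a difference between ON and PN libraries cannot be told apart from a difference between those references. Libraries held 1.69 to 2.0 gigabases of aligned sequence. Levels are in FPKM, mapped fragments scaled to the length of the transcript and to the size of the library. This sets transcripts of unlike length side by side, but how well the scaling holds for transcripts shorter than a 75-base read was not tested. The transcripts carry serial names (mRNA followed by a number) that start anew in each species, and no gene symbol, so neither the genes behind them nor liver marker genes were checked.

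Intronless transcripts in vertebrate livers come from several sources. Replication-dependent histone genes and many small nuclear and signal recognition particle RNAs lack introns, retrocopies of messenger RNAs lose theirs, and most transfer RNA genes are a single short exon read by RNA polymerase III. Transfer RNA genes of fishes often lie in tandem arrays, and in vertebrates the leucine and serine transfer RNAs carry a long variable arm and are longer than the others. A transcript assembled from reads can also be a single exon because it is a piece of a longer transcript, and rRNA-depleted total RNA keeps RNAs without a poly(A) tail.

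The lengths fell into separate groups with an almost empty interval between them. In ON, 323 members were shorter than 100 bases, none measured 100 to 199 bases and 1799 had 200 bases or more. In PN the numbers were 199, 2 and 1954. The shortest member of the longer group had 200 bases in ON and 201 in PN. Whether a length limit in the assembly set this edge, and so the empty interval, was not tested. The short group was narrow. In ON it held 282 transcripts of 71 to 74 bases and 41 of 81 to 86 bases, with 137 of exactly 73, 111 of exactly 72 and 35 of exactly 82 bases. In PN it held 160 and 39, with 66 of exactly 72, 60 of exactly 73 and 22 of exactly 82 bases. In the RefSeq gene table of another ON assembly, O_niloticus_UMD_NMBU, 1822 of 1970 nuclear transfer RNA genes (92.5%) have one of these lengths, and 1825 of 1879 nuclear genes of 71 to 86 bases (97.1%) are transfer RNA genes. The short members are therefore called transfer RNA-sized, which names their length and not their identity, since no coordinates could be carried between the assemblies.

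**Figure D1:**
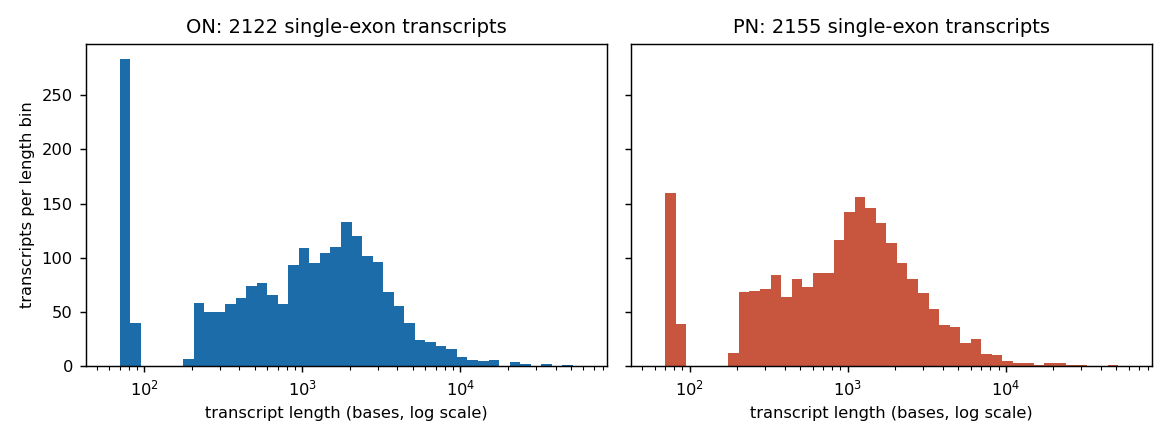
Histogram of the lengths of the single-exon transcripts (x axis, bases, log scale) in ON (left) and PN (right), with transcripts per bin on the y axis. The separate peak at the left of each panel holds the 323 ON and 199 PN transcripts shorter than 100 bases, and the rest start near 200 bases.

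Members were shorter than spliced transcripts by median length. Those of 200 bases or more had medians of 1394 bases in ON and 1148 bases in PN. Over all members the median length was 1069 bases in ON (quartiles 364 and 2240) and 1032 bases in PN (quartiles 416.5 and 1825.5), against 2513 and 2379 bases for the exons of spliced transcripts. The longest ON members were mRNA20486 of 49477 bases, mRNA39852 of 37607 bases and mRNA10134 of 36137 bases. Their FPKM in fish 1, 2 and 3 were 1.77, 3.82 and 3.21 for mRNA20486. They were 7.95, 10.3 and 8.26 for mRNA39852 and 13.3, 3.08 and 4.82 for mRNA10134. All 3 overlapped the span of a spliced transcript on the same strand. The longest PN members were mRNA37482 of 46201 bases, mRNA22972 of 29450 bases and mRNA8454 of 24257 bases. Of these, mRNA37482 was level across the fish at 4.72, 4.75 and 4.66 FPKM, overlapped no spliced transcript, and lay 61921 bases or more from any.

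Members were measured at low levels in most cases, as were spliced transcripts. The median FPKM of the 2122 ON members was 0.733, 0.788 and 0.658 in fish 1, 2 and 3 (0.726 ± 0.065, SD, n = 3), and that of the 2155 PN members was 1.23, 1.74 and 1.52 (1.5 ± 0.26). Over all listed spliced transcripts it was 0.520, 0.517 and 0.526 in ON and 1.26, 1.51 and 1.35 in PN. An FPKM of 1 or more in every fish was reached by 597 ON members (28.1%), where the share over all nuclear stranded transcripts was 32.7%, and by 962 PN members (44.6%), where it was 45.4%. An FPKM above 0 in all 3 fish was listed for 1593 ON members (75.1%) against 66.2% of all nuclear stranded transcripts, and for 1825 PN members (84.7%) against 75.7%. No member was at 0 in all 3 fish, whereas 263 spliced transcripts in ON and 79 in PN were. By the study's methods the sets were assembled from reads of the libraries measured. Being listed and being above 0 are thus not independent, and this contrast is no result about levels. In bulk tissue, fewer cells of a type and less RNA per cell cannot be told apart behind any of these levels.

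Listed levels differed with length at both ends. In ON, the median FPKM over 3 fish was 1.37 ± 0.18 (SD, n = 3) for members of 200 to 499 bases, 1.07 ± 0.054 for 500 to 999 bases, 0.822 ± 0.073 for 1000 to 1999 bases and 0.489 ± 0.018 for 2000 to 4999 bases. It was 2.1 ± 0.16 for the 119 members of 5000 bases and over. In PN the same classes stood at 1.57 ± 0.15, 1.52 ± 0.26, 1.53 ± 0.24, 1.79 ± 0.31 and 2.53 ± 0.52, the last over 92 members. The fall from 200 to 4999 bases held from class to class within each ON fish. In PN the class of 2000 to 4999 bases was above each of the 3 shorter ones within every fish, at 1.47, 2.09 and 1.8 against 1.44, 1.74 and 1.53 for 200 to 499 bases, the nearest in fish 1. The transfer RNA-sized members stood lowest, with medians of 0.069, 0.0047 and 0.045 FPKM in the ON fish and 0.098, 0.337 and 0.172 in the PN fish.

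A few members carried most of the summed level. The 10 highest held 80.4% ± 2.5 (SD, n = 3) of the members' summed FPKM in ON and 70.2% ± 3.3 in PN. In ON a single transcript, mRNA22874, held 61.3% ± 6.4. Of the members' aligned bases, which are not scaled to length, it held 16.6, 16.8 and 25.4% in fish 1, 2 and 3. It is 321 bases long, lies on the + strand at NC_031978.1:11615598-11615918, overlaps no spliced transcript and lay 146 bases from a spliced transcript of the other strand. Its FPKM was 14313, 12648 and 17468. The next ON member, mRNA5078 of 5875 bases, was at 1420, 1116 and 732 FPKM, so mRNA22874 stood more than 10 times above every other ON member in each fish.

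The remaining high ON members differed in how steady they were. Among them mRNA25321, of 215 bases and inside a spliced span on its own strand, was at 1083, 918 and 976 FPKM. By contrast mRNA37306, of 2180 bases on a sequence that holds no spliced transcript, was at 1015, 994 and 532, and mRNA23975, of 633 bases and 101 bases from a spliced transcript of its strand, was at 497, 805 and 269. The other 5, mRNA28881, mRNA9186, mRNA5777, mRNA40609 and mRNA4644, had means between 153 and 342 FPKM. The lowest fish was fish 3 in 5 of the 10, fish 2 in the other 5 and fish 1 in none.

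In PN 3 short members shared the top. The FPKM of mRNA15433 (222 bases, NW_005187449.1:639264-639485, +) was 4119, 6615 and 6759. That of mRNA17245 (251 bases, NW_005187459.1:1353263-1353513, +) was 5972, 5530 and 5885, and that of mRNA20288 (305 bases, NW_005187477.1:70176-70480, +) was 4536, 4843 and 5568. Their means, 5831, 5796 and 4982, differed by less than the SD of 1480 of mRNA15433, so their order is not resolved. The first lies inside a spliced span on the same strand, and the other 2 overlap none. Next came mRNA4422 of 1724 bases, which varied most of the 10, at 1795, 759 and 3775 FPKM.

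A pair of high PN members lay head to head. The − strand mRNA5886 (1374 bases, 853, 1381 and 1383 FPKM) ends 56 bases before the + strand mRNA5887 (4411 bases, 1003, 1160 and 1320 FPKM) begins, so that their 5′ ends face each other across the gap and they are read away from it. Both were lowest in fish 1. The other members of the PN 10, mRNA36892, mRNA25433, mRNA34282 and mRNA23116, had means from 299 to 846 FPKM. Of the PN 10, fish 1 was lowest in 6, fish 2 in 3 and fish 3 in 1.

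**Figure D2:**
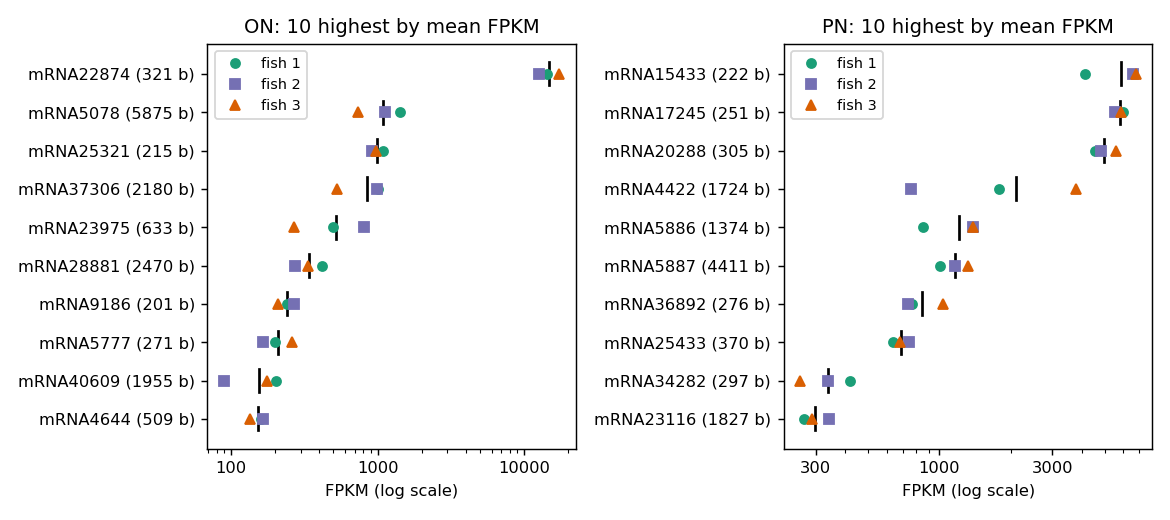
FPKM (x axis, log scale) of the 10 single-exon transcripts with the highest mean in ON (left) and PN (right), one symbol per fish, a black bar at the mean and the length in bases beside the name. mRNA22874 stands apart in ON at 12648 to 17468, while 3 PN transcripts overlap between 4119 and 6759.

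About 2 members in 3 lay clear of spliced transcripts. No overlap with a spliced span was found for 1452 ON members (68.4%) and 1430 PN members (66.4%). A span on the same strand was overlapped by 453 ON (21.3%) and 576 PN members (26.7%), a span on the opposite strand by 171 (8.06%) and 112 (5.20%), and spans on both strands by 46 and 37. Of the 670 ON and 725 PN members with any overlap, 596 and 568 lay wholly inside a span. The tables hold spans and no exon positions, so whether such a member sits in an intron was not tested. No transcript listed without a strand overlapped a member, and 8 ON and 2 PN members overlapped another member.

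Members inside or across a spliced span on their own strand had higher medians than members without overlap. The median FPKM in ON was 0.464 ± 0.037 (SD, n = 3) without overlap, 1.18 ± 0.13 on the same strand, 1.04 ± 0.098 on the opposite strand and 1.76 ± 0.25 on both. In each ON fish the lowest of the overlapping classes, 0.932 FPKM at the least, was above the class without overlap, 0.505 at the most. In PN the values were 1.41 ± 0.26, 1.62 ± 0.24, 1.42 ± 0.20 and 3.45 ± 0.82. Within each PN fish the same-strand class (1.36, 1.82 and 1.67) was above the class without overlap (1.14, 1.67 and 1.41), as was the class on both strands (2.5, 3.93 and 3.92), while the opposite-strand class (1.23, 1.63 and 1.39) was above it in fish 1 only. Of the transfer RNA-sized members, 245 of 323 in ON and 135 of 199 in PN lay in the class without overlap. Medians by position were not taken within length classes, and the cause of these differences was not tested.

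Single members of each position class show the range. On the same strand as their host, the highest members in ON were mRNA25321 and mRNA9186, given among the 10 above, and mRNA24500 with 86.1, 25.9 and 83.7 FPKM. In PN they were mRNA15433 and mRNA25433, also among the 10, and mRNA266 with 199, 314 and 311 FPKM. Opposite to a spliced span levels were lower, the highest being mRNA35413 in ON (45.6, 98.0 and 36.8 FPKM) and mRNA41120 in PN (13.7, 16.9 and 16.0). The next ones were mRNA33845 (34.6, 30.2 and 35.7) and mRNA36946 (36.9, 22.9 and 18.8) in ON, and mRNA14097 and mRNA17976 in PN with means of 10.6 and 8.93. With spans on both strands the highest were mRNA32592 in ON (43.4, 23.9 and 80.6) and mRNA3338 in PN (47.1, 45.5 and 58.7). Behind these came mRNA36177 and mRNA1884 in ON (means 23.3 and 16.5) and mRNA32855 and mRNA26617 in PN (means 25.7 and 20.5).

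The level of a member followed that of its host only loosely. The host level is the summed FPKM of all spliced transcripts that overlap the member on the strand in question. Across the 453 ON members in same-strand spans, Spearman's rho between the FPKM of member and host was 0.21 to 0.34 in the 3 fish, and across the 576 PN members 0.082 to 0.16. Opposite to a span it was 0.31 to 0.36 across 171 ON members and 0.38 to 0.44 across 112 PN members. Member and host share a library and reads near one another, and transcripts are not independent replicates. The member was higher than its same-strand host in 206 to 210 of 453 cases in ON and in 270 to 308 of 576 in PN.

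Members without overlap crowded against 1 side of spliced transcripts. Among those of 200 bases or more, 209 of 1207 in ON (17.3%) and 466 of 1293 in PN (36%) lay within 1000 bases of a spliced transcript of the same strand, and 104 (8.62%) and 117 (9.05%) within 1000 bases of one of the opposite strand. Of the near same-strand members, 162 in ON and 388 in PN lay downstream, past the 3′ end of the neighbour, and 47 and 78 lay upstream. Most gaps were short, with a median of 121 bases in ON and 97 in PN.

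That crowding depended on the strand. Within 250 bases of a same-strand spliced transcript, 107 ON members followed the 3′ end of a − strand transcript and 26 that of a + strand transcript. In PN the numbers were 306 and 48. Before the 5′ end the order turned, with 6 ON and 7 PN members beside − strand transcripts and 22 and 46 beside + strand transcripts. Put by coordinate, 129 of 161 such members in ON (80.1%) and 352 of 407 in PN (86.5%) lay on the side of the lower coordinates. The − strand members made up this imbalance, with 107 on the lower and 6 on the higher side in ON and 306 and 7 in PN, while + strand members were split 22 to 26 and 46 to 48. At gaps of 1001 to 5000 bases that share was 55.6% of 151 in ON and 47.2% of 144 in PN. Beside opposite-strand spliced transcripts within 250 bases it was 44.7% of 47 and 38.9% of 54.

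Transcripts listed without a strand showed the mirror image at the same distance. Within 250 bases of the nearest spliced transcript, 111 of 157 in ON and 277 of 386 in PN followed the 3′ end of a + strand transcript, and 15 and 50 that of a − strand transcript. On the side of the lower coordinates lay 13.4% of them in ON and 15.5% in PN. The cause of this asymmetry was not tested.

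**Figure D3:**
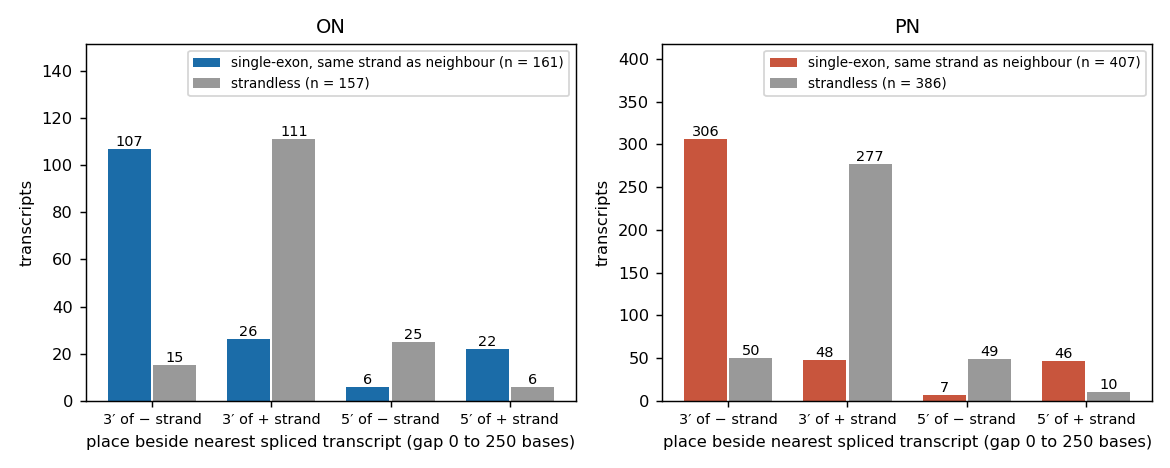
Number of transcripts (y axis) whose gap to the nearest spliced transcript is 0 to 250 bases, by end (3′ or 5′) and strand of that neighbour, in ON (left) and PN (right). Coloured bars are single-exon transcripts of 200 bases or more without overlap, set against their nearest same-strand neighbour, and grey bars are strandless transcripts against their nearest neighbour of either strand. Coloured bars peak past the 3′ end of − strand transcripts (107 and 306) and grey bars past that of + strand transcripts (111 and 277).

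Past the 3′ ends of spliced transcripts PN members departed most from an even strand balance. The − strand held 1056 of all 2122 members in ON (49.8%) and 1217 of all 2155 in PN (56.5%), against 49.9% and 50.7% of spliced transcripts. In PN it was 60.1% for members of 200 to 1999 bases, with 889 on − and 591 on +, and 50.8% for members of 2000 bases or more. Of the non-overlapping members of 200 bases or more within 1000 bases downstream of a same-strand spliced transcript, the − strand held 322 of 388 in PN (83%) and 123 of 162 in ON (75.9%). Of those of 200 bases or more that lay over 1000 bases from any, or had none on their sequence, the shares were 53.3% of 827 and 48.9% of 998. The excess was spread over the PN genome, since 88 of the 126 sequences with at least 5 members of 200 bases or more held more on −, 31 more on + and 7 equal numbers. In ON the numbers were 16, 13 and 2 of 31 sequences. Of the transfer RNA-sized members 39.6% in ON and 43.7% in PN were on −. In ON 66 of the 195 on + belong to the 2 largest runs of members along a sequence, and without these runs the numbers were 129 on + and 128 on −.

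Members of 200 bases or more beside spliced transcripts were above their neighbour in fewer than 1 case in 2. On the lower-coordinate side within 1000 bases, the 156 ON members had median FPKM of 1.61, 1.84 and 1.62 in the 3 fish against 2.53, 2.79 and 2.66 for their neighbours, and 48 to 62 of the 156 were above the neighbour. The 377 PN members had 1.56, 2.11 and 1.78 against 2.66, 3.27 and 2.86, and 125 to 150 were above. The gap was smaller on the other side in PN, where 89 members had 1.85, 2.31 and 2.17 against 2.15, 2.15 and 2.34, with 38 to 41 above. In ON 53 members there had 1.21, 1.66 and 1.19 against 2.05, 2.04 and 1.72, with 17 to 19 above. Both groups of lower-side members were above the median of all members in every fish.

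Members were spread over 218 sequences in ON and 659 in PN. The ON sequence with most was NC_031986.1, with 125 members, 67 of them transfer RNA-sized, and the PN sequence with most was NW_005187402.1, with 51, none of them transfer RNA-sized. Sequences that hold no spliced transcript carried 80 ON and 145 PN members. In PN 45 non-overlapping members of 200 bases or more started within the first 100 bases of their sequence, and none in ON. Among these, chosen after their values were seen, mRNA45499 was at 331, 147 and 184 FPKM and mRNA45342 at 24.4, 390 and 22.6, so that the latter was high in fish 2 only.

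Transfer RNA-sized members gathered in runs. A run is taken here as 3 or more members with no gap above 10000 bases between neighbours. In ON 57 runs held 320 members (15.1%), among them 176 of the 323 transfer RNA-sized members (54.5%) and 144 of the 1799 longer ones (8.0%). In PN 41 runs held 144 members (6.68%), among them 45 of 199 (22.6%) and 99 of 1956 (5.06%). Of the ON runs, 19 held only transfer RNA-sized members, 36 held none and 2 were mixed, and in PN the numbers were 10, 27 and 4. By the same rule 62.0% of the 21737 ON and 63.9% of the 18601 PN spliced loci, which are far more numerous, lay in runs.

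The next spliced locus or member along a sequence shows the gathering without a distance limit. Transcripts listed without a strand were left out of this order. After a transfer RNA-sized member came another in 177 of 315 cases in ON (56.2%) and 48 of 188 in PN (25.5%). After a spliced locus one came in 0.623% and 0.727% of cases. A longer member was followed by a longer member in 19.2% of cases in ON and 12.7% in PN, and a spliced locus by one in 6.48% and 8.75%.

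The largest run held 34 members, all on the + strand of NC_031986.1:24527627-24563188. It has 19 members of 73 bases and 15 of 72 bases, and 11 steps from one start to the next measured exactly 79 bases. The steps from a 72-base member to the next 73-base member had a median of 749 bases. The spacing of 79 bases between a 73-base and a following 72-base start occurred 12 times in ON, each time on this sequence, and 3 times in PN, each time on NW_005187519.1.

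In that run fish 2 was highest and fish 1 lowest. Its summed FPKM was 22.2, 91.0 and 54.6, and 13, 31 and 33 of the 34 members were above 0. The highest members, mRNA34695 (6.32, 8.71 and 6.26 FPKM) and mRNA34696 (6.32, 8.08 and 5.25), are neighbours 79 bases apart, start to start, and were alike in all fish. Next to them mRNA34693 was at 0, 8.37 and 5.86, and mRNA34694 at 5.61, 7.33 and 4.64. The other 30 members were lower, at 0 to 0.911 FPKM in fish 1.

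The second run held 33 members over 36978 bases of NW_017615899.1:99278-136255, and was seen in 1 fish almost alone. It opens with a − strand member of 1130 bases, mRNA38722, and goes on with 32 transfer RNA-sized members on the + strand that alternate between 71 or 72 and 81 or 82 bases in all but a few places. The 12 steps from a 72-base to an 82-base member measured 625 to 635 bases, with a median of 633, and the 11 steps from an 82-base to a 72-base member had a median of 1436 bases, so the pattern recurs at nearly the same length along most of the run. All 32 short members were above 0 in fish 1 and at 0 in fish 2 and 3. The run held 17168 aligned bases in fish 1, 98.3 in fish 2 and 82.3 in fish 3. These bases include the 1130-base mRNA38722, which gave most of those in fish 1 and all of those in fish 2 and 3.

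The members of the second run did not carry this difference alone. The highest short member, mRNA38740, was at 9.85, 0 and 0 FPKM against a floor of 1.51 that 3 reads allow at that length in fish 1. The opening mRNA38722 was at 4.58, 0.044 and 0.036. Of the 32 short members, 10 reached their floor in fish 1. The 2 spliced transcripts within the run were above 0 in fish 1 only as well, mRNA38730 at 3.0 and mRNA38736 at 5.91 FPKM. Of the 26 transcripts of other sizes after the run on the same sequence, 20, 22 and 21 were above 0 in the 3 fish, with medians of 0.523, 0.717 and 0.750 FPKM. The cause of the difference between the fish was not tested.

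**Figure D4:**
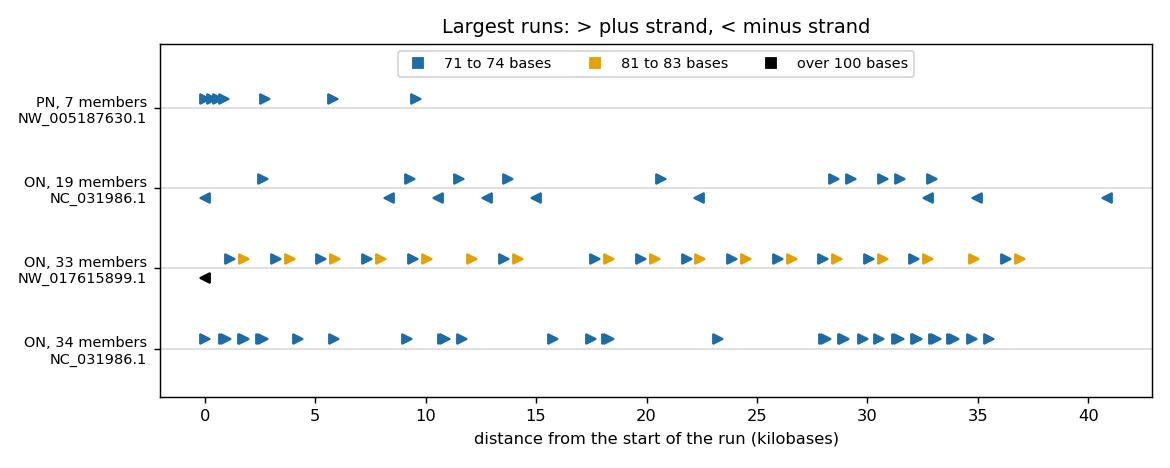
Places of the members (x axis, kilobases from the start of the run) in the 3 largest ON runs and the largest PN run, with > for the plus and < for the minus strand and colour for length. The run of 33 alternates between its length classes at even steps, and the run of 34 holds close pairs on 1 strand.

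**Figure D5:**
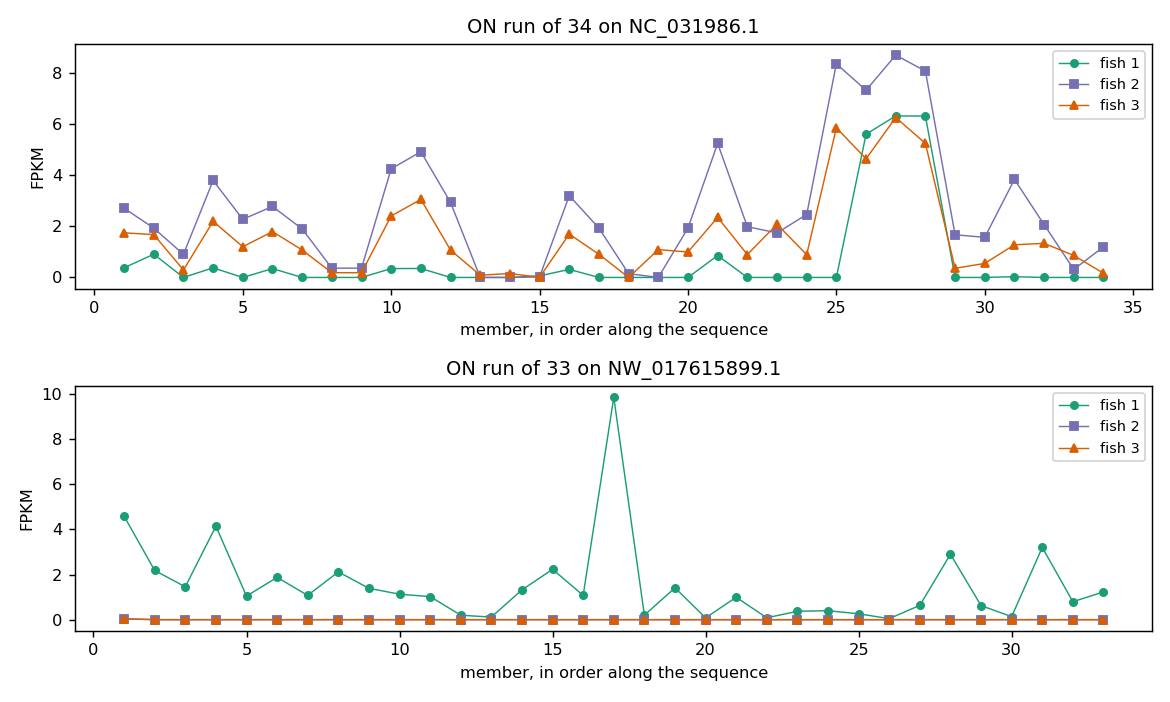
FPKM (y axis) of each member in order along the sequence (x axis) in the ON runs of 34 and 33 members, one line per fish. In the run of 34 the peak near the end reaches 8.71 in fish 2, and in the run of 33 all short members are at 0 in fish 2 and 3.

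Smaller ON runs showed other layouts. The third, of 19 members on NC_031986.1:30060739-30101674, held 10 members on + and 9 on −, and its summed FPKM was 2.48, 1.22 and 0.988. On NC_031984.1 a run of 8, all of 73 bases and on −, had 7 steps of 910 to 913 bases. On NC_031976.1 a run of 10 was above 0 in fish 3 only, at all 10 members and a summed 1.37 FPKM, below the floor of 1.52 for a single one of them. The runs of 8 and 10 fall outside the naming rule and were chosen after their values were seen.

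The largest PN run was smaller. It held 7 members of 71 bases on the + strand of NW_005187630.1:681008-690634, all inside a spliced span of the same strand. Among them mRNA33251 was at 4.30, 5.67 and 7.22 FPKM, and mRNA33250 at 2.18, 1.99 and 4.02, above the floors of 1.65, 1.77 and 1.54 that 3 reads allow at 71 bases in these libraries. By contrast mRNA33252, at 5.81, 1.85 and 1.4, was under the floor in fish 3. The other 4 stayed below 1 FPKM in every fish.

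Few transfer RNA-sized members rose above the floor of 3 reads, which for their lengths is 1.36 to 1.52 FPKM in ON and 1.35 to 1.77 in PN. The shortest in ON, mRNA13762, mRNA13761 and mRNA13760, all of 71 bases in a run of 6, were at 1.51, 0 and 0.903, at 0.835, 1.54 and 0, and at 0.871, 0 and 0.353 FPKM. It was reached in all 3 fish by 9 of 323 in ON and 14 of 199 in PN, and in at least 1 fish by 62 and 37. Of members of 200 bases or more, 1242 of 1799 in ON and 1569 of 1954 in PN reached their own floor in all fish. How many of all nuclear stranded transcripts reached theirs was not counted, so these numbers have no such background. At this depth the absence of most transfer RNA-sized members from a fish cannot be read, and floors cover counting error only. The highest in PN were far above it. Chosen after their values were seen, mRNA25484 of 73 bases, which starts at base 3 of NW_005187519.1, was at 162, 191 and 232 FPKM. The pair mRNA25510 and mRNA25511, 79 bases apart on the same sequence, was at 45.8, 57.0 and 66.6 and at 95.9, 109 and 122. These 3 were lowest in fish 1 and highest in fish 3, and mRNA28680, between them by its mean of 60.3, was at 58.1, 55.7 and 67.0, lowest in fish 2. The highest ON value, 9.85 in mRNA38740, lay far below these.

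Some transfer RNA-sized members could not be told apart by their values. In ON 63 of 323 (19.5%) had exactly the same FPKM in all 3 fish as another such member, in 22 sets of up to 6, and in PN 27 of 199 (13.6%) in 10 sets of up to 6. Of the members of 200 bases or more, 2 in each species did. Near-identical copies can share reads. Whether these members are such copies was not tested, so the levels of single ones are uncertain.

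Longer members formed runs as well. The largest such run in ON, chosen after its values were seen, held 9 members of 405 to 1646 bases, all on the − strand of NC_031975.1:3158392-3191443 and none within 13956 bases of a spliced transcript. Its members were above 0 in every fish and ranged from 0.867 to 10.9 FPKM. The highest, mRNA18038, was steady at 10.9, 9.59 and 10.2. In PN a run of 6 on the + strand of NW_005187402.1:12384758-12416092 held members of 628 to 1809 bases, none above 0.317 FPKM in any fish. A run of 5 on NW_005187667.1:295659-311494 held 4 members on + and 1 on −. Within it mRNA35012 of 543 bases was at 26.8, 28.7 and 33.7 FPKM while the other 4 stayed below 1.

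Separate members at times showed nearly the same levels. The following were chosen after their values were seen. In ON mRNA25882 of 264 bases on NC_031980.1 was at 47.4, 104 and 40.6 FPKM, and mRNA35413 of 262 bases on NC_031987.1 at 45.6, 98.0 and 36.8, both highest in fish 2. The most frequent length from 200 bases up in ON was 264 bases with 8 members, 6 of them on NC_031985.1, and each of these 6 was highest in fish 1 and lowest in fish 3. At 264 bases the floor of 3 reads is 0.427 to 0.431 FPKM. Under it were mRNA33513 in every fish, and mRNA33494, mRNA33527 and mRNA33530 in fish 3. Whether these members share reads was not tested. Another ON pair, mRNA23560 and mRNA23563, lies 4046 bases apart and was at 52.3, 74.9 and 24.2 and at 54.9, 77.8 and 26.8. In PN mRNA13889 and mRNA13891, 901 bases apart on 1 strand, parted in fish 2, where the first was at 249 and the second at 0.432 FPKM, against 266 and 135 in fish 1 and 276 and 157 in fish 3.

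Taken over all lengths, fish of a species ranked members less alike than spliced transcripts, while for longer ON members the ranges overlapped. Spearman's rho between pairs of ON libraries was 0.69 to 0.77 over the 2122 members and 0.78 to 0.81 over the 30925 spliced transcripts. In PN it was 0.73 to 0.81 over 2155 members and 0.82 to 0.85 over 25677 spliced transcripts. For members of 200 bases or more alone it was 0.73 to 0.82 in ON and 0.72 to 0.80 in PN, and for transfer RNA-sized members −0.037 to 0.38 in ON and 0.28 to 0.46 in PN. These describe transcripts that share libraries, and transcripts are not independent replicates. Among members with 1 FPKM or more in every fish, the median coefficient of variation was 0.252 in ON and 0.257 in PN, against 0.222 and 0.216 for spliced transcripts.

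Listed zeros in one fish beside values in another differed in frequency between short and longer members. Members were at 0 in 1 fish and reached 1 FPKM in another in 98 ON cases (4.62%), where the share over all nuclear stranded transcripts was 4.91%, and in 85 PN cases (3.94%), where it was 6.02%. Among transfer RNA-sized members it was 53 in ON (16.4%) and 18 in PN (9.05%), and among those of 200 bases or more 45 (2.5%) and 67 (3.43%). For transfer RNA-sized members 1 FPKM lies under the floor of 3 reads, 1.36 to 1.52 in ON and 1.35 to 1.77 in PN. For longer members it lies above their floors, at most 0.569 and 0.662, so these shares are not alike in kind. An FPKM above 0 in a single fish was found for 187 of 323 transfer RNA-sized members in ON (57.9%) and for 136 of 1799 longer ones (7.56%), where the share over all nuclear stranded transcripts was 18%. Of the 187, 32 belong to the second largest run, and without it the share was 53.3% of 291. In PN the numbers were 79 of 199 (39.7%) and 85 of 1954 (4.35%), against 11.8% over all. Of the 187 in ON, 88, 48 and 51 were above 0 in fish 1, 2 and 3 alone. The floor was reached by 10, 1 and 0 of these, and all 10 lie in the second largest run. Of the 79 in PN, 11, 48 and 20 were above 0 in fish 1, 2 and 3 alone, and 0, 1 and 0 reached it.

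Among longer members at 0 in one fish, mRNA39446 in ON was at 0, 28.0 and 24.2 FPKM. It has 229 bases and lies 82 bases from a spliced transcript of its strand. The floor that 3 reads allow in fish 1 is 0.494, and the level in fish 3 was 49.1 times that floor. This member was picked for its 0, and floors cover counting error only. Whether its reads were assigned to the neighbour in fish 1 was not tested. Also in ON mRNA10085 was at 0, 8.48 and 0.057, the last under its floor of 0.512. In PN mRNA45670 was at 0, 9.99 and 2.26, and mRNA44919 at 0, 2.09 and 7.40. The third PN member named by this rule, mRNA43413, is transfer RNA-sized with 72 bases. It was at 7.80, 0 and 1.51, the last under its floor of 1.54.

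The species were compared over whole libraries. No mitochondrial bases were taken out of the library totals, to which FPKM is also scaled. Only ON had a mitochondrial sequence left out of the members. How much of each library was mitochondrial was not taken, nor its effect on the species differences tested. Members took 2.77, 2.41 and 2.21% of the aligned bases in the ON fish (2.46 ± 0.28, SD, n = 3) and 2.55, 3.03 and 3.4% in the PN fish (2.99 ± 0.43). The groups overlapped, and the difference of 0.530 percentage points had p = 0.20 in a two-sided exact permutation test, where 3 against 3 fish cannot give less than 0.10. As a share of summed FPKM, or without the most abundant member of each species, the groups did not overlap and the differences were 1.4 and 0.876 points, each with an exact permutation p = 0.10. Leaving out that member took unequal parts, since the mean share of aligned bases went from 2.46 to 1.99% in ON and from 2.99 to 2.87% in PN. An FPKM above 0 was listed for 88.1, 85.7 and 86.1% of the ON members (86.6 ± 1.3) and 91.2, 93.7 and 92.2% of the PN members (92.4 ± 1.3). All PN fish were above all ON fish, by 5.74 percentage points in the mean, with p = 0.10 in the two-sided exact permutation test, the smallest that the design allows. The size of this difference depended on the threshold and on the short members, at 14.8 points for 0.1 FPKM or more, 18.6 points for 1 FPKM or more and 2.72 points over members of 200 bases or more. Spliced transcripts above 0 showed the same order, at 82.5, 81.3 and 81.9% in ON and 87.3, 88.3 and 86.7% in PN. The difference above 0 was therefore not particular to members. In every fish, 1 FPKM or more was reached by 33.0% of spliced transcripts in ON and 45.4% in PN. For members these shares were 28.1% and 44.6%. A higher PN share at 1 FPKM was thus not particular to members either. Shares of spliced transcripts per fish at 0.1 and 1 FPKM were not taken.

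Set against the spliced transcripts of the same library, the level of members depended on which transcripts were taken. Over transcripts above 0, the median log2 FPKM of members minus that of spliced transcripts was 0.0012, 0.18 and −0.03 in ON (0.05 ± 0.11, SD, n = 3) and −0.28, −0.14 and −0.25 in PN (−0.22 ± 0.07). The difference of −0.27, PN minus ON, had p = 0.10 in the two-sided exact permutation test, again the smallest possible. With 3 comparisons made between species, the Benjamini-Hochberg adjusted values were 0.15 for both at 0.10 and 0.20 for the other. Within a species the value was −0.80 in ON and −0.62 in PN over transcripts with 1 FPKM or more in every fish, and −0.44 and −0.60 against spliced transcripts summed per locus. Over all listed transcripts with a pseudocount of 0.1 the values were 0.41 for ON and 0.11 for PN. The difference between species was not stable either, since over members without overlap it was 0.0091 and over transcripts with 1 FPKM or more it was 0.18.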

How the data were processed

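The authors aligned the paired reads of each library to the genome of its species with HISAT2 2.1.0, to ASM185804v2 for ON and PunNye1.0 for PN, and StringTie is named beside it in the submitters' processing notes. By the study's methods, transcripts were assembled with and without the reference annotation, replicates of a species were merged into one set, and transcripts without expression, duplicates and similar transcripts of a locus were removed or joined. The sets used here still list 263 ON and 79 PN spliced transcripts at 0 in all 3 fish. Whether that removal was applied to them is therefore not known. For every transcript the authors deposited an FPKM value, normalised to transcript length and library size, and a mean per-base coverage. Neither is a read count, and no count model was fitted. For reads that align to several places, the way of counting is not stated in the sources used.

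Tables were read with Python 3.11.15 and pandas 2.3.3, and all 3 tables of a species listed the same transcripts. Groups came from the sample labels. Coverage divided by FPKM was one constant per library (relative tolerance 0.0001, above 50 FPKM), from which aligned bases were computed, and the FPKM that 3 reads of 75 bases would give was taken as the floor of a transcript. Position was taken against spans of spliced transcripts, with an overlap of 1 base or more. Runs joined members with gaps of up to 10000 bases. Spliced transcripts that overlap on 1 strand were joined into loci. Species were compared by two-sided exact permutation tests on 1 value per fish (scipy 1.17.1). The position and run steps were tested on simulated data.

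The members and all lists were chosen with earlier results of these data known. Named transcripts are, in each species, the 10 with the highest mean FPKM, the 3 longest and 3 shortest, the members of the 3 largest runs, the 3 highest of each position class, and the 3 highest in one fish among those at 0 in another. Others are said to have been chosen after their values were seen. Members were not tied to genes and no sequence is shown, because no genome or annotation of these builds was used here.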

Additional observations from a re-analysis of the deposited data

How the results depend on the processing

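The comparison of level depended on the transcripts taken. PN minus ON changed sign over members without overlap (0.0091, exact permutation p = 1) and over transcripts at 1 FPKM or more in every fish (0.18, exact permutation p = 0.20). In ON the median log2 difference from spliced transcripts moved from 0.05 to −0.26 without overlapping members, 0.18 and 0.41 with pseudocounts of 1 and 0.1 over all listed transcripts, −0.80 at 1 FPKM or more, −0.44 against spliced loci and 0.21 over members of 200 bases or more. In PN it moved from −0.22 to 0.070 and 0.11 with these pseudocounts, −0.62 at 1 FPKM or more, −0.51 within the quartiles of member length and −0.60 against spliced loci. Against 320 ON members in runs, the count was 157 when only members above 0 in all fish were taken, 183, 169 and 165 when that was asked without replicate 1, 2 or 3, and 142 over members of 200 bases or more. For the 144 PN members the counts were 86 with gaps of up to 5000 bases, 85 on sequences with 50 or more stranded transcripts and 88 over members of 200 bases or more. The limit of 200 bases was chosen after the data were seen. Leaving out one fish in turn gave 0.326 to 0.753 percentage points for the share of aligned bases, 5.05 to 6.50 for members above 0 (2.72 to 18.6 over other thresholds and lengths) and −0.31 to −0.21 for the level. The replicate numbers mark different fish and nothing pairs them across species. With the replicate number as a block (replicate block, sign flips, smallest possible p of 0.25), the exact p was 0.50 for the difference of 0.530 percentage points in aligned bases, 0.25 for that of 5.74 points in members above 0 and 0.25 for that of −0.27 in level. Without one fish in turn the level within ON was −0.01 to 0.09, changing sign without replicate 2 by less than its SD between fish, and within PN −0.26 to −0.19. The other values had the direction given in the report, and the other counts stayed within 1.5 times. No exact p could fall below 0.10 under any of them. The causes were not tested. Most transfer RNA-sized members stayed under the level of 3 reads, so their absence from a fish cannot be read at this depth. Why they stayed under it was not tested.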
